A study of Rattus norvegicus with 12 samples.

Results

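The genes described here were 6 fibroblast growth factors, Fgf1, Fgf2, Fgf7, Fgf9, Fgf10 and Fgf18, and the 4 FGF receptor tyrosine kinases, Fgfr1 to Fgfr4, in the colon of the rat. They were found by gene name, and all 10 genes had a probe, which gave 10 of 26514 gene names and 15 of the 30367 probes of the array. Fgf7 was chosen by its measured difference between Groups M and C in these samples, so the values of that comparison are a description with no test. Colonic tissue of 12 male Wistar rats was measured, 4 per group, with 1 array of 1 colour per rat. Rats C1 to C4 of Group C were handled normally and received placebo. Rats M5 to M8 of Group M underwent neonatal maternal separation (NMS), 180 min daily from day 2 to day 14, and received placebo. Rats D9 to D12 of Group D underwent the same NMS and received VSL#3, a mixture of probiotic bacteria, from day 3 to day 60. All 12 rats underwent colorectal distension (CRD) and the colon was taken on day 60, so no group shows the tissue without distension. The labels do not give the litters of the rats, and p-values measure only the spread between these animals.

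Most fibroblast growth factors are secreted proteins that bind heparan sulfate at the cell surface and switch on FGF receptors. The receptors signal through adaptor proteins to the MAP kinase pathway. Fgf7, the keratinocyte growth factor, is made mainly by mesenchymal cells and acts on the epithelial form of Fgfr2. It is known for its part in epithelial growth and repair, in the intestine as in the skin. Fgf10 acts on the same receptor form, Fgf1 acts on all FGF receptors, Fgf2 is a growth factor of fibroblasts and vessels, and Fgf9 and Fgf18 act mainly on the forms of the receptors that mesenchymal cells carry.

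Each probe is an oligonucleotide of 60 bases, and what a value counts is set by the stretch of transcript the probe matches. The Fgf7 probe (A_44_P392234) lies on rn4 chromosome 3, plus strand, from 113516353 to 113517401. That span of 1049 bases is longer than the probe, so the probe joins 2 exons and reads spliced RNA. It is shown with the probes of Fgf18 and Fgf2, of which the former holds the longest run of bases in common with it. Capitals mark, in the first pair of lines, the longest run the Fgf7 and Fgf18 probes share, 11 bases, and in the Fgf2 line the longest run shared with the Fgf7 probe, 7 bases.
Fgf7: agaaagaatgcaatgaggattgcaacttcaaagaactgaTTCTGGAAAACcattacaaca
Fgf18: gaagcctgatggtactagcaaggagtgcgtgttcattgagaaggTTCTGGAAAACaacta
Fgf2: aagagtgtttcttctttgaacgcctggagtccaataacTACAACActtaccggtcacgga
Among the other 30366 probes of the array, 11 shared a run of at least 12 bases with the Fgf7 probe, and the longest such run was 15 bases, in a probe of the olfactory receptor Olr649. The Fgf2 probe lies on rn4 chromosome 2, plus strand, at 123946945 to 123947004, and is printed on the array in 10 spots. The files give no genome position for the Fgf18 probe.

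The probes of the receptors are nearer to each other. The lines below give the second probe of Fgfr1 (rn4 chromosome 16, minus strand, 70870258 to 70870317), the third of Fgfr2 (chromosome 1, minus strand, 189488370 to 189488429) and the single probe of Fgfr4 (chromosome 17, minus strand, 15512990 to 15513049), where probes of a gene are numbered from the highest mean signal down. Capitals mark the 18 bases that the Fgfr1 and Fgfr2 probes share and, in Fgfr4, the 9 bases shared with Fgfr2.
Fgfr1: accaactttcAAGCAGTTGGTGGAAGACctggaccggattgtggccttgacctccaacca
Fgfr2: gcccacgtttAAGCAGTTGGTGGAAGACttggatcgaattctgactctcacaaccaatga
Fgfr4: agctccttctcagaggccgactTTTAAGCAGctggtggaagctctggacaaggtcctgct
No pair of probes of different members shared a longer run than 18 bases. The files do not say which probe reads the epithelial form of Fgfr2, so the forms of the receptors were not told apart.

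Levels are log2 ratios of a signal to the 75th percentile of all signals on that array, so a level of 0 is the 75th percentile and a step of 1 is a factor of 2. A difference was called at an adjusted p of at most 0.05 over all probes and a change of at least 2-fold. Rat D12 was left out of the fit, as in the study, whose text gives no reason. The fit thus used 11 arrays. D12 is shown throughout, and values of all 12 arrays are named as such. The share of spots well above background was 75.5% to 77.5% per array. Along the first principal component, which held 57.8% of the variance, 3 rats lay apart from their groups: C2 (11.8) and D12 (62.0) lay toward M5, M7 and M8 (42.1 to 68.2), and M6 (-23.1) toward the other rats of Groups C and D (-39.4 to -27.8). Groups C and M shared 1 slide, with Group C in row 1 and Group M in row 2, so row and NMS cannot be told apart between them. Group D was on the other slide, with its own scan date. Slide, scan and VSL#3 thus cannot be told apart in any comparison with Group D. In whole tissue, fewer cells of a type and less RNA per cell cannot be told apart either.

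For Fgf7 the lowest rat of Group M lay above the highest rat of Group C. In Group C its log2 level was -5.98 in C1, -4.92 in C2, -6.10 in C3 and -5.92 in C4. Rats M5 to M8 of Group M were at -3.79, -4.27, -3.35 and -3.90. The groups did not overlap, and C2, 1 of the 3 rats that lay apart, was the Group C rat nearest to Group M. Group C had a mean of -5.73 ± 0.55 (SD, n = 4), Group M one of -3.83 ± 0.38 (SD, n = 4). They differed by 1.90 on the log2 scale (SE 0.28) or 3.74-fold. The probe was well above background on all 12 arrays, though with signals of 23.6 to 60.3 units in Group C it was dim there, and a normexp background correction put the difference at 0.91, under 2-fold. The call of Fgf7 in this comparison was lost without any 1 of 9 of the 11 rats, that is, C1, C3, C4, M5, M7, M8, D9, D10 or D11, and it was held without C2 and without M6, fits that called 0.217% and 5.84% of all probes. Over these 11 fits the log2 difference itself lay between 1.75 and 2.18. As Fgf7 was chosen on this comparison, these calls are a description.

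In Group D the Fgf7 level was -5.26 in D9, -5.75 in D10 and -5.75 in D11, within the range of Group C and below every rat of Group M. D12, at -4.09, lay within the range of Group M. Over the 11 arrays Group D was lower than Group M by 1.76 on the log2 scale (SE 0.30, 3.39-fold, 95% interval -2.43 to -1.09), which did not pass the threshold (adjusted p = 0.0594, limma). This comparison uses the Group M rats that brought Fgf7 onto the list. With the normexp correction the difference was -0.84, under 2-fold. With D12 it was -1.39 (adjusted p = 0.225, limma) and the groups overlapped. Without C2, M6 and D12, a choice made after the data were seen, it was -1.91 (adjusted p = 0.000826, limma), in a fit that called 7.38% of all probes. From Group C, Group D differed by 0.14 (SE 0.30, 95% interval -0.53 to 0.81, adjusted p = 0.9998, limma), and by 0.52 (95% interval -0.33 to 1.36) with D12. In order of level Group M came first, and Groups D and C did not differ beyond their spread.

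Fgf2, which acts on fibroblasts and vessels, had much the same pattern over the rats. In Group C its log2 level was -4.38 in C1, -2.96 in C2, -4.67 in C3 and -4.41 in C4. Rats M5 to M8 of Group M were at -2.50, -2.66, -1.38 and -2.01. C2 was again the Group C rat nearest to Group M, and the groups did not overlap. The difference of the means was 1.97 on the log2 scale (SE 0.39, 3.91-fold). In Group D it was -4.41 in D9, -4.80 in D10 and -4.10 in D11, all below Group M, and -2.49 in D12, within it. Group D was lower than Group M by 2.30 (SE 0.42, 4.92-fold, adjusted p = 0.0690, limma), and by 1.81 (adjusted p = 0.228, limma) with D12, so neither fit gave a call.

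Fgf9 ran the other way. Its log2 level was -3.37, -3.56, -3.73 and -3.28 in C1 to C4, and -4.58, -3.93, -4.29 and -4.08 in M5 to M8, so each Group M rat lay below each Group C rat. The difference was -0.73 (SE 0.15, 1.66-fold lower). D9, D10 and D11, at -3.35, -3.61 and -3.48, lay at the level of Group C, and D12, at -4.80, lay below all other rats. Over 11 arrays Group D was higher than Group M by 0.74 (SE 0.17, adjusted p = 0.0831, limma), and over 12 arrays by 0.41 (adjusted p = 0.582, limma). Fgf18, which acts on the same receptor forms as Fgf9, had levels of -4.16, -4.43, -4.68 and -3.72 in C1 to C4 and of -4.70, -4.54, -4.87 and -4.69 in M5 to M8. Here the groups overlapped, with C3 inside the range of Group M. It was -4.62 in D9, -3.90 in D10, -3.83 in D11 and -4.81 in D12, and Group D exceeded Group M by 0.58 (SE 0.24, adjusted p = 0.203, limma) over 11 arrays.

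Fgf10, the other ligand of the epithelial form of Fgfr2, was near background. It was well above background in 1 rat, M6, at -7.05, and on no array of Groups C and D, so its values have no order and no fold is given. Fgf1 was well above background in all 12 rats and varied little. Its levels ran from -2.29 to -1.76 in Group C, from -2.47 to -1.77 in Group M and from -2.33 to -1.76 in Group D, and the difference between Groups M and C was -0.11 (SE 0.17).

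**Figure D1:**
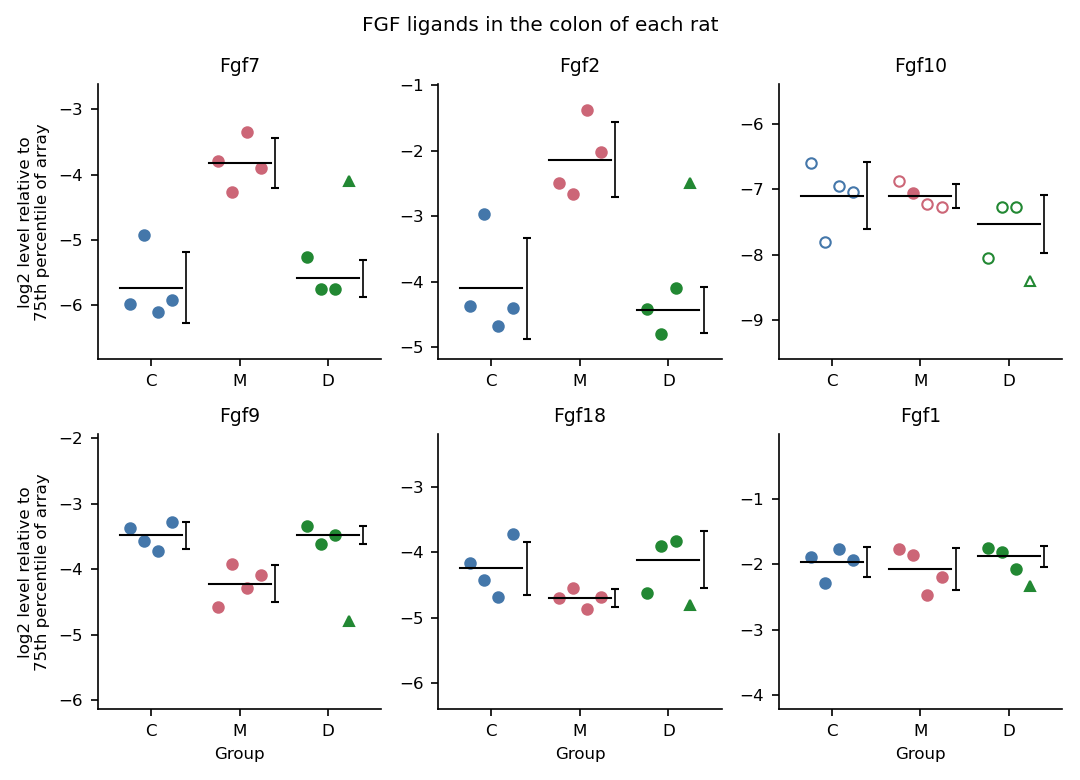
Log2 level relative to the 75th percentile of the array for 6 FGF ligands in each rat, by group; circles are rats, the triangle is D12, open symbols are not well above background, and lines and bars give the mean and SD without D12. Each panel spans the same number of log2 units. Fgf7 and Fgf2 were highest in Group M, from -4.27 to -3.35 and from -2.66 to -1.38, Fgf9 was lowest there apart from D12, and D12 lay with Group M for Fgf7 and Fgf2.

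Since Fgf7 and Fgf2 varied together, their promoters are shown, as the 250 bases before the start of the gene in RefSeq on GRCr8, plus strand, at chr3:133735377-133735626 for Fgf7 and chr2:122164204-122164453 for Fgf2. Capitals mark matches on either strand to the AP-1 site TGANTCA, the cAMP response element TGACGTCA, the GC box GGGCGG, the TATA box TATAAA, and the NF-kB site, the CArG box and the heat shock element in their common forms.
Fgf7: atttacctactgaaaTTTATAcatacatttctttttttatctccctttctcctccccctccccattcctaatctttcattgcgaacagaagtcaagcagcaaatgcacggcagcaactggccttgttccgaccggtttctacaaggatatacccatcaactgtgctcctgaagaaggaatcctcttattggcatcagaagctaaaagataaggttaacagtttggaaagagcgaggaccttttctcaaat
Fgf2: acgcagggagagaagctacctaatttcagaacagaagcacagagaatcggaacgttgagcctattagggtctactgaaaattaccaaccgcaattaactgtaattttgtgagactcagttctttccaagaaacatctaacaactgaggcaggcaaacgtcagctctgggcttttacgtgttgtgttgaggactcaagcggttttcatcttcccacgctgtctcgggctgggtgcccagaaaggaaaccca
The Fgf7 window held 1 match to the TATA box, on the minus strand, and none to the others, and the Fgf2 window held none. Of 33469 promoters of this length, 12.9% held the TATA box, 30.5% the GC box, 6.34% the AP-1 site, 1.59% the cAMP response element, 1.5% the CArG box, 0.663% the heat shock element and 0.0956% the NF-kB site. These are matches of letters in 1 window per gene, and a promoter entry was found for 9 of the 10 genes.

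Among the receptors no probe differed by 2-fold. Fgfr1, which mesenchymal cells carry, had 2 probes that moved alike. The first was at -1.32, -0.97, -1.34 and -1.53 in C1 to C4 and at -1.17, -1.13, -0.45 and -0.75 in M5 to M8, with C2 inside the range of Group M. The difference between Groups M and C was 0.42 (SE 0.18) by the first probe and 0.47 (SE 0.20) by the second. Group D lay below Group M by 0.51 (SE 0.20, adjusted p = 0.179, limma) and 0.44 (SE 0.21, adjusted p = 0.257, limma).

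Fgfr3, the receptor of epithelial and cartilage cells that Fgf9 and Fgf18 activate, ran the opposite way by both its probes. The first was at 1.06, 0.82, 1.28 and 0.69 in C1 to C4 and at 0.38, 0.88, 0.39 and 0.53 in M5 to M8, and M6 was the Group M rat that overlapped Group C. In Group D it was at 1.13 in D9, 1.24 in D10 and 1.004 in D11, above every rat of Group M, but at -0.29 in D12, the lowest of all rats. The difference between Groups M and C was -0.41 (SE 0.16) by the first probe and -0.62 (SE 0.20) by the second. Group D was higher than Group M by 0.58 (SE 0.17, adjusted p = 0.113, limma) and 0.67 (SE 0.21, adjusted p = 0.131, limma) over 11 arrays, and by 0.22 and 0.27 with D12.

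Fgfr2, whose epithelial form is the receptor of Fgf7, varied little across the groups. Its brightest probe ran from 1.83 to 2.08 in Group C, from 1.78 to 2.02 in Group M and from 1.68 to 2.24 in Group D. The differences of its 4 probes between Groups M and C lay between -0.06 and 0.21, and between Groups D and M between -0.12 and 0.17. For the brightest probe the 95% interval of Group D minus Group M was -0.18 to 0.35. Fgfr4, which is found in epithelia, spread most in Group M, from -3.51 in M6 to -2.34 in M7, while the Group C rats lay between -3.45 and -3.32. The difference of 0.42 (SE 0.22) thus rested on M7 and M8, at -2.34 and -2.80.

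**Figure D2:**
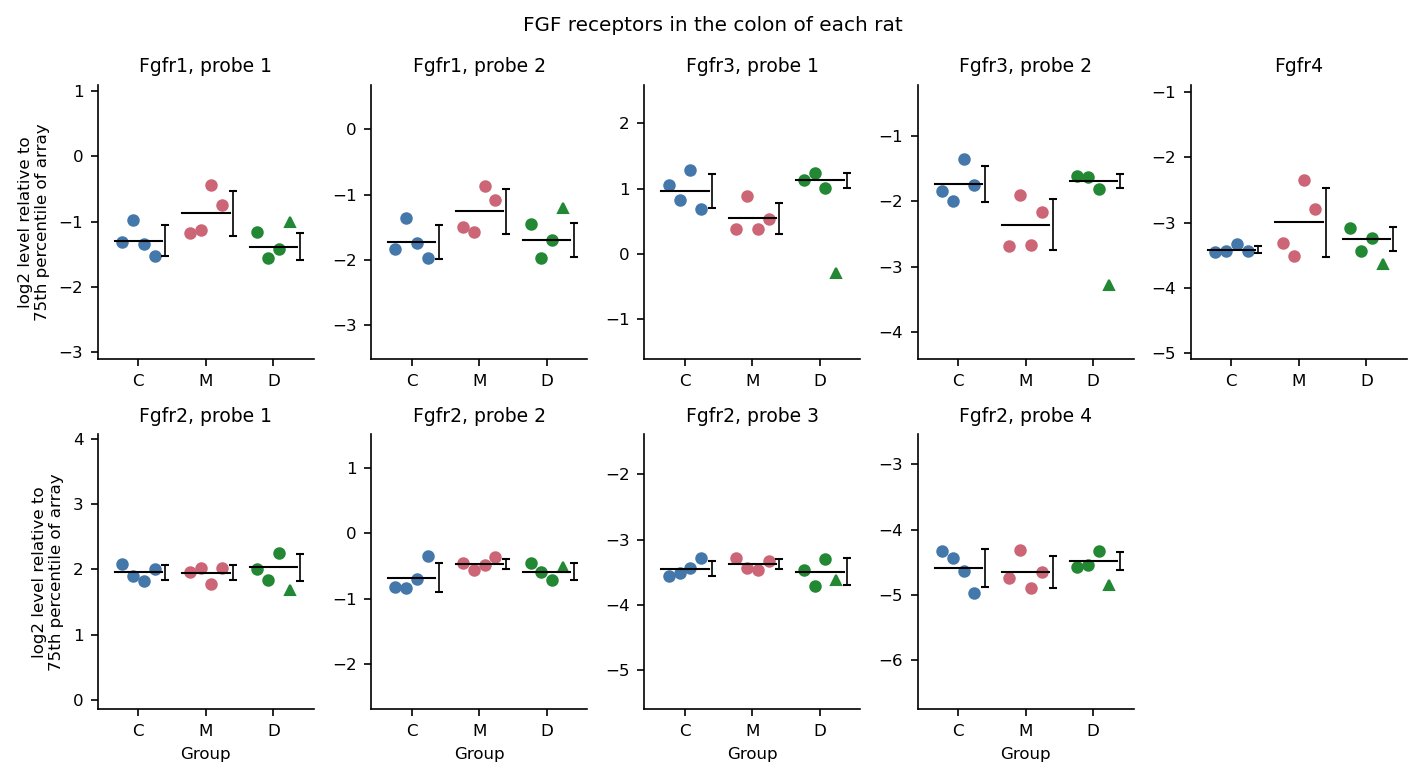
Log2 level relative to the 75th percentile of the array for the 9 probes of the 4 FGF receptors in each rat, by group; circles are rats, the triangle is D12, and lines and bars give the mean and SD without D12. The 4 Fgfr2 probes differed by at most 0.21 between Groups M and C, and both Fgfr3 probes were lowest in D12, at -0.29 and -3.28.

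Counted by gene, with the brightest probe of each, 1 of the 10 genes, Fgf7, was called in Group M vs Group C, where 0.165% of all probes were called. The choice of Fgf7 used this contrast, so nothing is read from that count. Between Groups D and M none of the 10 was called by limma (0.128% of all probes), while 6 reached an unadjusted p of 0.05 or less, against 21.6% of all probes. With D12 it was 2 of 10, against 12.2%. Group D vs Group M shares the Group M rats on which Fgf7 was chosen, so nothing is read from these counts either. Between Groups D and C none was called (0.00659% of all probes), and 0 of 10 reached an unadjusted p of 0.05 or less, against 5.97%. With all 12 arrays none was called between Groups M and C or between Groups D and M, where 0.0329% and 0.0132% of all probes were called. The methods' criterion was an analysis of variance followed by Tukey's comparison, with a 2-fold change and no adjustment over probes. By it 2 genes, Fgf2 and Fgf7, passed in each comparison with Group M. Of all probes, 2.31% passed against Group C and 2.66% against Group D. As Fgf7 was chosen on Group M vs Group C, nothing is read from its pass there, nor against Group D, which uses the same Group M rats. Groups without overlap were seen for 3 of 10 genes in Group M vs Group C (Fgf7, Fgf2 and Fgf9; 9.22% of all probes) and for 4 of 10 in Group D vs Group M over 11 arrays (these 3 and Fgfr3; 15.8% of all probes), Fgf10 not counted since it was not above background. Groups D and C overlapped for all 10 genes, where 7.56% of all probes did not overlap. With D12 all 4 overlapped between Groups D and M, where 5.00% of all probes did not. As Fgf7 was chosen through Group M, nothing is read from the counts of groups without overlap. The median difference of the 10 genes was -0.01 in Group M vs Group C, as over all probes (-0.01), since members lay on both sides.

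**Figure D3:**
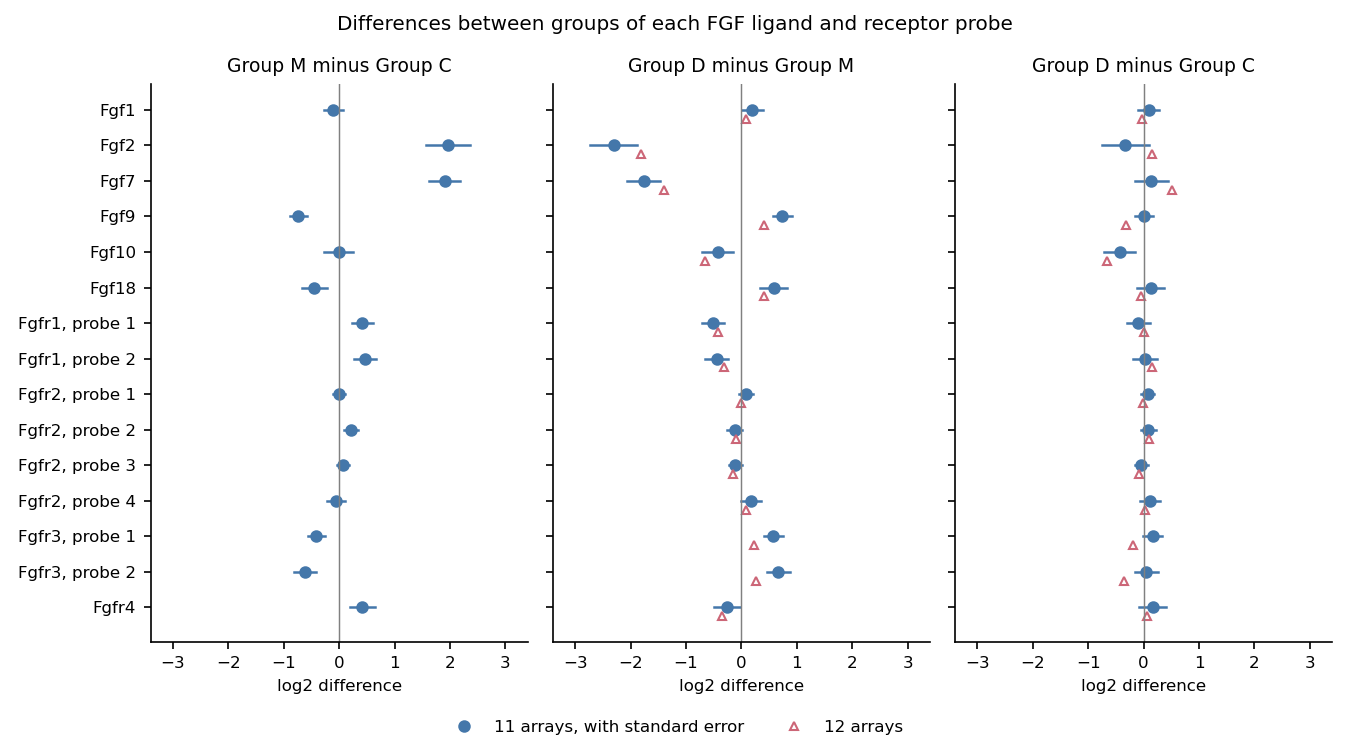
Log2 difference between groups of each FGF ligand and receptor probe over 11 arrays (circles, with standard errors) and, where Group D is involved, over 12 arrays (triangles). Fgf2 and Fgf7 lay farthest from 0 in Group M minus Group C, at 1.97 and 1.90, and in Group D minus Group M, at -2.30 and -1.76; with D12 both came nearer to 0.

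The rest of the pathway was taken from 5 lists of 88 genes, of which 85 had a probe and 62 were well above background on each of the 11 arrays. None of the 85 was called by limma in any of the 3 comparisons. At an unadjusted p of at most 0.05, 12 were higher and 7 lower in Group M vs Group C, which is 22.4% of the 85 against 22.7% of all probes. Group D had 12 higher and 9 lower than Group M, or 24.7% against 21.6%. Against Group C it was 4 and 4, or 9.41% against 5.97%. By the methods' criterion 2 of the 85 passed in Group M vs Group C, Fgfbp1 and Myc, where 2.31% of all probes did. In Group D vs Group M it was Myc and the dim Fgf21, where 2.66% of all probes did.

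The feedback and target genes of the pathway, 16 in all, had a median difference of 0.39 in Group M vs Group C, beside -0.01 over all probes, and of -0.13 in Group D vs Group M. Of these 16, 6 were higher and 1 lower at an unadjusted p of at most 0.05 in the first comparison, where 22.7% of all probes reached it, and 2 and 2 in the second, where 21.6% did. Myc, a regulator of growth that FGF signals induce, ran from -1.01 to -0.40 in Group C and from -0.20 to 1.46 in Group M, a difference of 1.38 (SE 0.29, adjusted p = 0.0895, limma). Egr1, an immediate early transcription factor, differed by 1.06 (SE 0.37, adjusted p = 0.145, limma). The inhibitors of the pathway Spred3 and Dusp6, the latter a phosphatase of ERK, differed by 0.96 (SE 0.34, adjusted p = 0.146, limma) and 0.91 (SE 0.29, adjusted p = 0.130, limma). Group D differed from Group M by -1.19 for Egr1 (adjusted p = 0.143, limma), -1.11 for Myc (adjusted p = 0.110, limma), -0.69 for Dusp6 (adjusted p = 0.240, limma) and 0.69 for the transcription factor Etv1 (adjusted p = 0.126, limma). D12 had the highest level of Egr1 and Myc of all rats, at 1.98 and 1.54. Without C2, M6 and D12, Myc, Dusp6, Fgfbp1 and Grb2 were called in Group M vs Group C, and 5 pathway genes, Myc, Egr1, Fgfbp1 and the dim Fgf21 and Flrt1, in Group D vs Group M. Those fits called 8.67% and 7.38% of all probes. The choice of rats to leave out was made after the data were seen, so nothing is read from these calls.

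Among the co-receptors and binding proteins, Fgfbp1, a carrier that frees FGFs from the matrix, ran from 0.18 to 0.58 in Group C and from -1.52 to 0.12 in Group M. These groups did not overlap, and M6 was the Group M rat nearest to Group C. The difference was -1.14 (SE 0.28, adjusted p = 0.0992, limma), and Group D lay above Group M by 0.83 (adjusted p = 0.162, limma), with D12 at -1.15. Sdc1, the heparan sulfate proteoglycan of epithelia and plasma cells, was higher in Group M by 1.002 (SE 0.42, adjusted p = 0.190, limma), with levels of 3.41 to 5.53 there against 2.66 to 3.33. Sdc3 and Fgfbp3 differed between these groups by -0.33 and -0.22. From Group M to Group D, Sdc1, the decoy receptor Fgfrl1 and the FGF receptor partner Flrt2 differed by -0.61, 0.53 and -0.47.

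Of the 15 enzymes of heparan sulfate, 3 reached an unadjusted p of 0.05 between Groups M and C, and 5 between Groups D and M, against the same 22.7% and 21.6%. Hs3st1 and Hs6st1, which add sulfate groups, differed by 0.63 and 0.40 in Group M vs Group C, and Ext2 and Extl3, which build the chain, by -0.45 and -0.32. From Group M to Group D, Hs3st1, Hs6st1 and Hs2st1 differed by -0.52, -0.50 and -0.39, and Sulf1, which removes sulfate, by -0.40. The adjusted p (limma) was at or above 0.122 in the first comparison and 0.137 in the second for all 15. Of the 23 signal transducers, phospholipase Plcg1 was lower in each rat of Group M (-3.18 to -2.62) than in each of Group C (-2.13 to -1.91), by 0.80 (SE 0.15, adjusted p = 0.0791, limma), and Group D exceeded Group M by 0.66 (adjusted p = 0.0900, limma). D12, at -2.06, also lay above every rat of Group M. The adaptor Grb2, which links the receptors to Ras, was higher in Group M by 0.78 (SE 0.20, adjusted p = 0.105, limma) and lower in Group D than in Group M by 0.60. The exchange factor Sos2 and the phosphatase Ptpn11 differed by -0.48 and 0.44 in Group M vs Group C. Shc1 and Hras differed by 0.40 and 0.39 in Group D vs Group M.

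The other Fgf genes were mostly dim, and 2 of 16, Fgf13 and Fgf17, were well above background on every array. Their differences between Groups M and C were -0.01 and 0.03, and between Groups D and M 0.26 and -0.02. Fgf21, a hormone of the FGF family, was singled out after its values were seen. It was well above background on 3 of 12 arrays, all of Group D, so no difference is given.

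**Figure D4:**
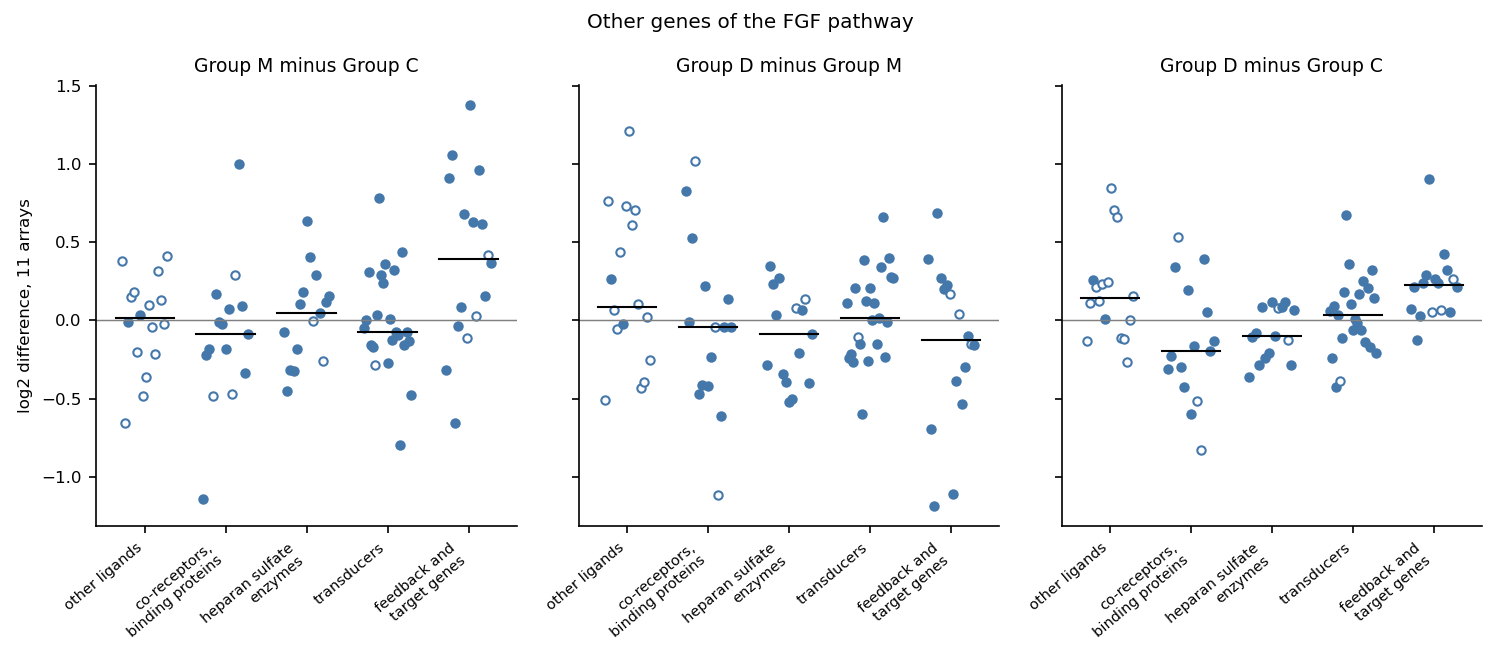
Log2 difference over 11 arrays of each gene of 5 FGF pathway lists in the 3 comparisons; filled points are genes well above background on all 11 arrays, open points the others, and lines are medians. The feedback and target genes had the highest median in Group M minus Group C, 0.39, and Fgfbp1 the lowest single value there, -1.14.

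Cytokines and growth factors known to induce Fgf7 in fibroblasts were read from a list of 5 genes, none of which was called. Il1b, an interleukin of macrophages and neutrophils, ran from -2.32 to -1.20 in Group C and from -1.94 to 1.17 in Group M, a difference of 1.26 (SE 0.55, adjusted p = 0.206, limma). Group D differed from Group M by -1.23 (SE 0.59, adjusted p = 0.259, limma), and D12 was at -0.30. Il1a and Tgfa differed by 0.01 and -0.01 in Group M vs Group C. Il6 was well above background on 2 of 12 arrays, so no difference is given.

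Markers of immune cells moved with Fgf7 in most rats, though not in all. B cell markers had a probe for 4 of 6 genes, of which 2 were well above background on all 12 arrays. The log2 of their summed level ran from -2.18 to 2.53 in Group C, from -1.83 to 3.13 in Group M and from -3.07 to 3.84 in Group D. It was high in C2, M5, M7, M8 and D12 (2.27 to 3.84) and low in the other 7 rats, M6 included. M6, with B cell markers at -1.83, had Fgf7 at -4.27, and C2, with B cell markers at 2.53, had Fgf7 at -4.92. T cell markers (8 of 8 above background on every array) ran from -0.51 to 2.38 in Group C, from -0.53 to 2.19 in Group M and from -0.57 to 3.29 in Group D, high and low in the same rats. The macrophage and monocyte list (6 of 7 genes with a probe, all above background) ran from 4.00 to 5.32, from 4.19 to 5.87 and from 3.97 to 5.39. The neutrophil list (5 of 6 genes with a probe, 2 above background throughout, Elane on no array) ran from -3.30 to -1.47, from -2.88 to 1.85 and from -3.003 to -1.34, highest in M7, which also had the highest Fgf7 and Fgf2. Without C2, M6 and D12, the rats in which these lists went against the group, the difference of Fgf7 between Groups M and C was 2.32. That choice was made after the data were seen, and the part of the immune cells in the difference was not tested.

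Markers of fibroblasts, which are among the cells that make Fgf7, overlapped between the 3 groups and spread most within Group C. All 8 were well above background on every array, none of the 8 was called, and their summed level ran from 6.18 to 7.05 in Group C, from 6.55 to 7.03 in Group M and from 6.39 to 6.78 in Group D. The lists of the epithelium (8.25 to 8.55, 8.28 to 8.84 and 8.16 to 8.69) and of smooth muscle (7.34 to 7.71, 7.37 to 7.88 and 7.44 to 7.85) overlapped in all 3 groups, and all their genes, 10 and 7, were well above background on every array. Lists of endothelium, goblet cells and enteric neurons and glia also overlapped between all groups by summed level. By the mean of the markers' log2 levels, endothelium in Group D (-2.04 to -1.93) lay below Group C (-1.87 to -1.66). Of the mesothelium markers 4 of 5 had a probe and 2 were well above background throughout. Their summed level ran from 0.41 to 0.77 in Group C, above Group M (-0.68 to 0.19) and Group D (-1.03 to 0.32). By the mean of their log2 levels the groups overlapped (-3.29 to -2.83, -4.17 to -3.18 and -4.66 to -3.26). The part of these markers in the results was not tested. Colonocyte markers, the absorbing cells of the surface, had the opposite pattern to Fgf7 in most rats, though not in all. They ran from 4.38 to 5.64 in Group C, from 3.67 to 5.26 in Group M and from 4.31 to 6.07 in Group D, with C2, M5, M7, M8 and D12 at or below 4.38 and the other 7 rats at or above 5.26. M6, with colonocyte markers at 5.26, had Fgf7 at -4.27, and C2, with colonocyte markers at 4.38, had Fgf7 at -4.92. The part of the colonocyte markers in the differences of Fgf9 and Fgfr3 was not tested.

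**Figure D5:**
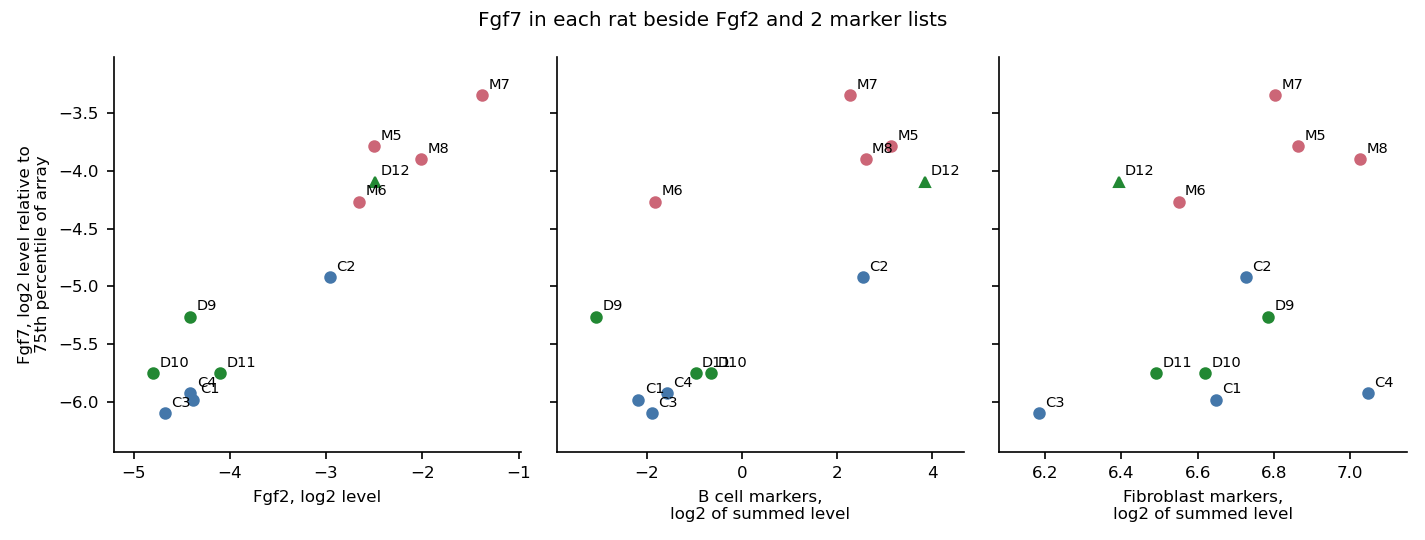
Log2 level of Fgf7 in each rat against the log2 level of Fgf2 (left) and the log2 of the summed level of B cell markers (centre) and fibroblast markers (right); blue is Group C, red Group M, green Group D, and the triangle is D12. Fgf7 and Fgf2 put the rats in a similar order, whereas M6 had Fgf7 at -4.27 with B cell markers at -1.83, and fibroblast markers lay within 6.18 to 7.05.

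The genes whose levels were most like that of Fgf7 were ranked by Pearson's r over the 12 rats, among 11766 genes well above background on every array. These rats fall in groups and share the main axis of variance, so r is a description. The 10 highest were Akap2 (0.978), Samd4a (0.967), Hspa1b (0.966), Pwp2 (0.963), Atp10a (0.963), Pde10a (0.962), Timp1 (0.961), Fgf2 (0.961), Slc7a5 (0.961) and Tmem49 (0.961). Fgf2 was in place 8 of 11766, with a Spearman's rho of 0.839 and an r of 0.935 after the group means were taken out. Timp1 is an inhibitor of matrix metalloproteinases, Hspa1b a heat shock protein and Slc7a5 an amino acid transporter. Timp1 differed by 3.97 in Group M vs Group C and by -4.94 in Group D vs Group M over 11 arrays, and Hspa1b by 3.70 and -3.48. Among the lowest were Fam54b (-0.963), Gnb5 (-0.958), Prss53 (-0.957) and Dcun1d2 (-0.954). Among the other members and pathway genes, r was 0.904 for Grb2, 0.892 for Myc, 0.838 for Fgfr1, -0.730 for Fgfr3, -0.815 for Fgf9, -0.870 for Fgfbp1 and -0.889 for Ext2. It was -0.350 for Fgfr2, with a within-group value of -0.631.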

How the data were processed

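Cy3-labelled RNA of 12 colons was hybridized to Agilent rat arrays. The deposited intensity of each spot had been background-subtracted by the scanner software (Feature Extraction 10.5.1.1 per the file headers) and not normalized between arrays. The deposited matrix of the authors holds quantile normalized log2 values and served as an alternative. Here log2 of the 75th percentile of each array was subtracted, spots marked as outliers were dropped and the spots of a probe averaged. Groups were compared with limma 3.58.1 (lmFit, eBayes) under R 4.3.3, with Benjamini-Hochberg adjustment over 30367 probes. The number of arrays limits the precision, with 4 rats per group and 11 arrays in the fit. Where a gene had several probes, the one with the highest mean signal was counted. Positions are those of rn4 in the files. Named pathway genes are those called and, per list, up to 4 with the largest difference in each comparison with Group M, if no array had them near background. The members and lists were chosen with earlier results of these data known. The titles number the replicates 1 to 4 in each group, but samples of the same number did not deviate together. The procedure was tested on simulated data. Alternatives were all 12 arrays, other background corrections and scalings, outlier spots kept, a filter on dim probes, the replicate number as a block, array weights, only the compared groups, other thresholds, the methods' criterion, a second probe, and each rat left out. Figures were drawn with matplotlib 3.10.9.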

Additional observations from a re-analysis of the deposited data

Results flagged for a closer look

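In 45 groups of 4 rats (15 probes in 3 groups), the gap of the highest or lowest rat to its neighbour was set against the range of the group, with 0.829 as the critical value of Dixon, which chance passes in about 1 of 20 groups. It was passed 4 times. Fgf7 in Group C had a ratio of 0.851, through C2 at -4.92 with the next rat at -5.92. Both Fgfr3 probes in Group D passed through D12, with ratios of 0.848 (-0.29 against 1.004) and 0.886 (-3.28 against -1.80). Fgfr4 in Group C had a ratio of 0.919, through C3 at -3.32 with the next at -3.44, in a group whose whole range was small. Rat D12, which the fit of 11 arrays does not use, lay above every rat of Group C for 2 members, Fgf7 (-4.09 against at most -4.92) and Fgf2 (-2.49 against at most -2.96).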

How the results depend on the processing

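The log2 difference of Fgf7 kept its sign in both comparisons with Group M under every alternative, and with the normexp correction it was 0.91 and -0.84, under 2-fold in each. Leaving out 1 rat gave 1.75 to 2.18 and -1.92 to -1.60 in these comparisons. In Group D vs Group C it lay between -0.019, without D9 (Group D replicate 1), and 0.41, without C2. Group D vs Group M passed the threshold at -1.76 with the filter on dim probes (adjusted p = 0.0360, limma, fewer probes tested). It passed at -1.76 with array weights (adjusted p = 0.00628, limma) and by the methods' criterion (no adjustment over probes). It also passed at -1.76 without C2 (adjusted p = 0.0230, limma), and at -1.91 without M6 (adjusted p = 0.0104, limma) and without C2, M6 and D12. The adjusted p (limma) ranged up to 0.238 over the alternatives. In Group M vs Group C 0 members were called with all 12 arrays, in the authors' matrix, with only the 8 arrays of both groups and with the replicate block, 2 with array weights, by the methods' criterion and without C2, M6 and D12, and 0 to 2 with 1 rat left out (2 without C2 or without M6). As Fgf7 was chosen on that comparison, these counts are a description. With normexp the 1 member called there was Fgf2, not Fgf7. In Group D vs Group M it was 1 with normexp, 2 with the filter, array weights, the methods' criterion and without C2, M6 and D12, and 0 to 2 with 1 rat left out (2 again without C2 or M6). That comparison uses the same Group M rats, so its counts are a description too. Of the other pathway genes, 1 was called with normexp, 6 with array weights, 2 by the methods' criterion and 4 without C2, M6 and D12 in Group M vs Group C, and 0 to 4 with 1 rat left out (4 without M6). In Group D vs Group M it was 1 with the filter, 4 with array weights, 2 by the methods' criterion and 5 without C2, M6 and D12, and 0 to 5 with 1 rat left out (5 without M6). With the replicate block Fgf7 differed by 1.90, -1.81 and 0.10 in the 3 comparisons, and samples of the same number correlated from -0.755 to 0.614 in their deviations, so the numbers were not taken as pairs. Such counts stand beside the share of all probes called between Groups M and C, then between Groups D and M: 0.247% and 0.300% with normexp, 0.357% and 0.672% with the filter, 6.83% and 6.79% with array weights, 2.31% and 2.66% by the methods' criterion, 8.67% and 7.38% without C2, M6 and D12, 0.217% and 0.188% without C2, and 5.84% and 6.51% without M6. The cause of these changes was not tested. Leaving out C2, M6 and D12 was a choice made after the data were seen, so nothing is read from those calls. In Group D vs Group C no member or pathway gene was called under any alternative. Fgf7 has no second probe. Dim signals limit Fgf10, Fgf21, Flrt1 and Il6.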
